A study of Mus musculus with 4 samples.

Results

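The 10 genes described here are Fos, Fosl1, Jun, Junb, Jund, Atf3, Egr1, Dusp1, Ier3 and Myc, which encode AP-1 subunits and other products of the immediate early response. They were chosen by symbol, with earlier results of these data known. All 10 are among the 24444 genes of the deposited table and the 10857 genes high enough to test. Poly(A) RNA of cultured oesophageal cells from C57BL/6J mice was sequenced in 4 libraries. In 2 libraries the cells were untreated and wild type at Nfe2l2, which encodes the transcription factor NRF2. In the other 2 they were heterozygous for the tumour-derived E79Q substitution of NRF2, from an Nfe2l2-E79Q cassette introduced by CRISPR/Cas9 microinjection. The series title calls the mouse conditional. The sources used here do not name the recombinase, the age of the animals, or how many animals or cultures gave rise to the libraries. The spread between these libraries may therefore be technical. The p-values rest mostly on a spread pooled over genes and do not measure variation between animals. Every column name of the table also carries the word SV40, which the labels do not explain. The design text names a human breast cancer line instead, and the title and sample labels were followed.

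Immediate early genes are transcribed within minutes of a growth factor, a cytokine or a stress reaching the cell, without new protein synthesis, because the factors that switch them on are already present and are activated by MAP kinases. AP-1 is a dimer of proteins of the FOS, JUN and ATF families that grips DNA through a basic region next to a leucine zipper. FOS proteins must pair with a JUN protein to bind, whereas JUN proteins can also pair with each other. In stratified epithelia AP-1 regulates proliferation, differentiation and the response to wounding. The same genes also respond to the handling of cells. NRF2 is a leucine zipper protein as well, held low by KEAP1.

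In E79Q cells 9 of the 10 transcripts were higher and 1, Jund, was lower. All 10 passed the test over all genes (limma, Benjamini-Hochberg adjusted p under 0.05, replicate number as a block), where 40.4% of the tested genes passed in either direction, 21.5% higher and 18.9% lower. The rises ran from 0.38 in Junb to 1.39 in Fosl1 on the deposited scale, which is variance-stabilised and log2-like. A difference on it is the E79Q mean less the wild-type mean, given ± the SE of the limma fit. Most of the precision of this SE is borrowed across genes, so it does not measure the agreement of the 2 replicate pairs. The median difference of the 10 genes was 0.69, beside 0.0062 over all tested genes. A called rise at least as large as that of Junb was found in 4.95% of tested genes, one at least as large as that of Egr1 in 1.73% and one at least as large as that of Fos in 0.286%. The 2 groups did not overlap in any of the 10 genes, as in 79.2% of all tested genes, 41.1% with E79Q higher and 38.1% with it lower. The values had been centred within each replicate number before deposit, so the 2 libraries of a genotype differ by equal and opposite amounts in the 2 genotypes. Groups therefore do not overlap wherever both pairs differ in the same direction, and the gap between them is the smaller pair difference. Gaps and overlaps given below restate the 2 pair differences and are not further evidence. With 2 pairs the smallest two-sided p of an exact permutation test is 0.5, so the calls rest on a spread pooled over genes.

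**Figure D1:**
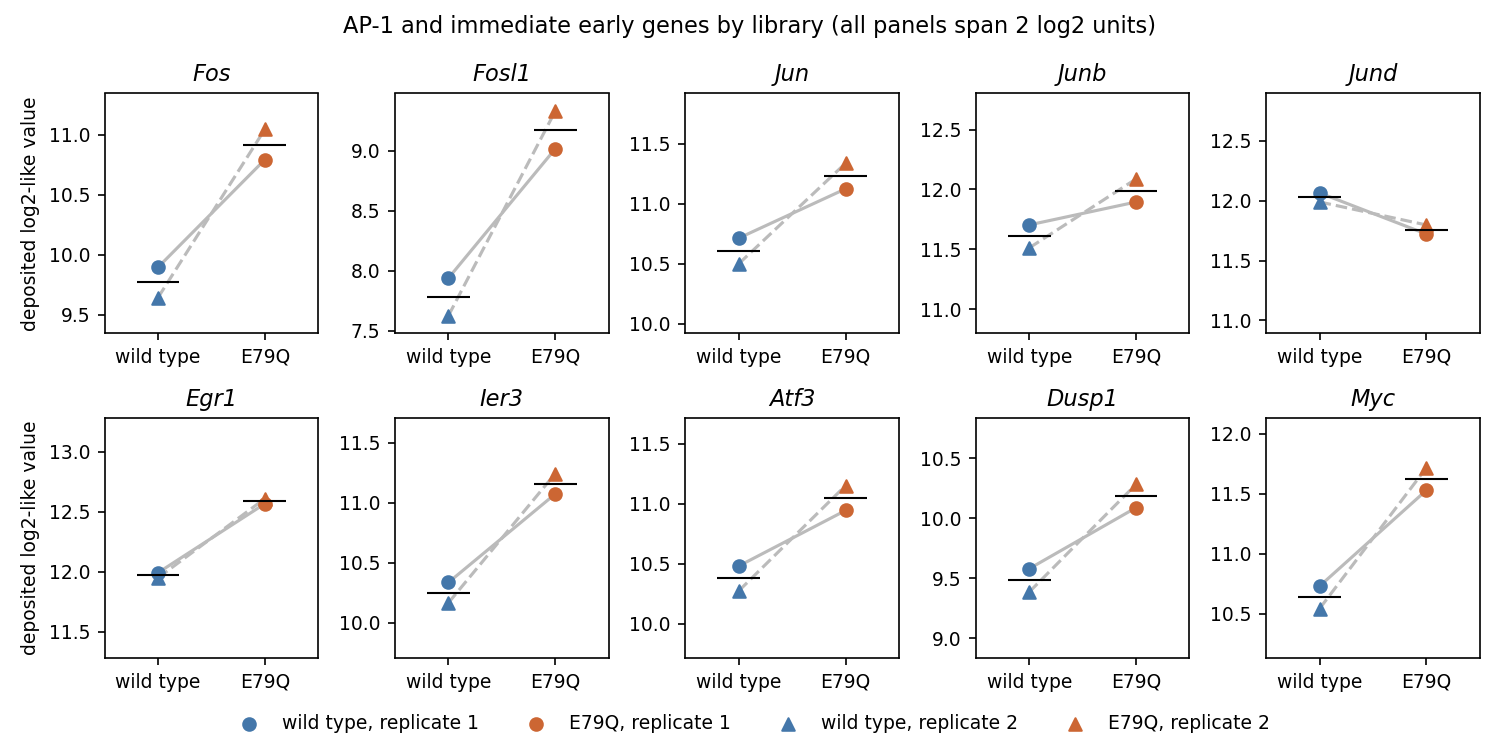
Deposited log2-like value of each of the 10 genes (vertical axis, each panel spanning the same range) in wild-type (blue) and E79Q (orange) libraries. Circles and triangles are replicates 1 and 2, grey lines join libraries of 1 replicate number and black bars are group means; both E79Q libraries lie above both wild-type libraries except in Jund, where both lie below.

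Promoter sequence is shown for 4 of the genes that rose, to set beside each other the elements through which FOS, ATF3 and DUSP1 transcription is known to respond to CREB and ATF proteins and JUN transcription to its own product. RefSeq promoters (build GRCm38.p6) were matched by symbol for 7 of the 10 genes, namely Fos, Jun, Junb, Jund, Ier3, Atf3 and Dusp1. The 250 bases before the start were searched on both strands. Capitals mark the core of the cyclic AMP response element, TGACGT or its reverse complement, its full form TGACGTCA, or TGACATCA, the AP-1 variant of the Jun promoter.
Fos, chr12:85473790-85473889, plus strand, bases 100 to 1 before the start: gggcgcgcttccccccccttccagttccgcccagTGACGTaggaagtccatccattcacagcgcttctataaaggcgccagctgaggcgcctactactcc
Jun, chr4:95052223-95052322, minus strand, bases 100 to 1 before the start: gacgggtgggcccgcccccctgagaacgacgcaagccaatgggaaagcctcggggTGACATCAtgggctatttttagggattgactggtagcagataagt
Atf3, chr1:191183334-191183433, minus strand, bases 100 to 1 before the start: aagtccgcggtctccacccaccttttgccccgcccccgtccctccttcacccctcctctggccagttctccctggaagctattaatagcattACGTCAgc
Dusp1, chr17:26508573-26508672, minus strand, bases 200 to 101 before the start: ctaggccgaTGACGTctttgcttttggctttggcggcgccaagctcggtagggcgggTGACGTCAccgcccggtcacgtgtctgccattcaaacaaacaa

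The core TGACGT stood 66 to 61 bases before the start of Fos. It stood 8 to 3 bases before that of Atf3, on the opposite strand. Dusp1 held it 191 to 186 bases before the start and again, within the full TGACGTCA, 143 to 136 bases before it. Of 27025 mouse promoters of the same length, 1 a gene, 6.56% held the core and 1.62% the full element, which contains the core. TGACATCA stood 45 to 38 bases before the start of Jun and was present in 3.02% of the promoters. The classical AP-1 site TGANTCA, present in 6.87% of promoters, had no match in these windows of the 7 genes, and neither had the CArG box bound by SRF (1.4%). Bases further from the start were not searched, and Fosl1, Egr1 and Myc had no promoter to search. The search therefore cannot show that any of the 10 genes lacks either element. The antioxidant response element core TGACNNNGC, to which NRF2 binds with a small MAF protein, was matched in 1 of the 7, Dusp1, 133 to 125 bases before the start, and in 10.1% of all promoters. That match overlaps by 2 bases the E-box CACGTG of the same promoter, 126 to 121 bases before the start; the E-box was present in 6.05% of promoters. The core TGACGT was chosen after the sequences were seen. Of the 39 other immediate early genes listed further on, 29 had a promoter and 7 of these held the core. The other lists held it too, in 7 of 19 promoters of MYC targets and 2 of 7 of other MAPK phosphatases. It stood in 3 of 16 promoters of upstream kinases and factors, 3 of 17 of AP-1 targets and 2 of 12 of MYC partners and antagonists. In other AP-1 subunits it was 1 of 7 and in heat shock genes 1 of 10. A match describes these letters and does not show binding.

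Both FOS family genes among the 10 rose. Fos, the prototype partner of JUN proteins, lay at 9.90 and 9.64 in the wild-type libraries against 10.79 and 11.05 in the E79Q libraries. The lower E79Q library stood 0.90 above the higher wild-type library. The difference was 1.15 ± 0.08 (limma adjusted p = 3.16e-08), a 2.65-fold ratio of normalised counts, which were 718 and 568 in wild type and 1531 and 1869 in E79Q. These counts were recovered by inverting the variance stabilisation of values already centred by pair, so they are approximate.

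Fosl1 encodes FRA-1, a FOS relative whose transcription is itself raised by AP-1 and ERK signalling. It lay at 7.94 and 7.63 in the wild-type libraries against 9.02 and 9.33 in those with E79Q, without overlap. The difference was 1.39 ± 0.11 (limma adjusted p = 5.02e-08). The wild-type values lie near the floor of the scale, 6.98, where differences are compressed. Normalised counts were 58.1 and 25.9 in wild type and 297 and 416 in E79Q, an 8.49-fold ratio, and the difference on the log2(normalised count + 1) scale was 3.15. Of the same family Fosl2 (FRA-2) was tested and not called, at 0.12 ± 0.06 (limma adjusted p = 0.143). Its values were 11.54 and 11.38 in wild type and 11.50 and 11.66 in E79Q, which overlap. It was called higher, at 0.20, when replicate 1 of wild type (limma adjusted p = 0.00631) or of E79Q (0.00587) was left out; because of the centring by pair, leaving out either library of a pair gives the same difference, and the lone library is then assumed to vary like the other group. Fosb was too low to test, at 7.50 to 7.55 in wild type and 7.64 to 7.69 in E79Q.

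The JUN family moved in both directions. Jun, the subunit that binds DNA alone or with a FOS protein, lay at 10.71 and 10.50 in the wild-type libraries against 11.13 and 11.34 in those with E79Q. The difference was 0.62 ± 0.07 (limma adjusted p = 6.51e-06), a 1.64-fold ratio of normalised counts. Junb, a weaker activator that can restrain JUN, lay at 11.70 and 11.51 in the wild-type libraries against 11.90 and 12.09 in those with E79Q. Its groups were the closest among the genes that rose, 0.19 apart, which matches the 0.19 between the 2 wild-type libraries. The difference in Junb was 0.38 ± 0.07 (limma adjusted p = 0.000304), a 1.33-fold ratio of normalised counts. Without the replicate block Junb was not called (limma adjusted p = 0.0575), although 55.3% of all tested genes then were. That fit counts 2 residual degrees of freedom per gene, although the centring by pair leaves 1.

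Jund, the JUN family member usually present in resting cells and less inducible than the others, lay at 12.06 and 11.99 in the wild-type libraries against 11.72 and 11.80 in those with E79Q. Both E79Q libraries were below both wild-type libraries, by at least 0.19. The difference was -0.27 ± 0.05 (limma adjusted p = 0.000503), and the ratio of normalised counts was 0.82. The 95% intervals were 0.47 to 0.78 for Jun, 0.24 to 0.52 for Junb and -0.37 to -0.16 for Jund. These intervals also borrow precision across genes. Both pair differences lay outside the interval in Jun (0.41 and 0.84) and in Junb (0.19 and 0.57), but not in Jund (-0.34 and -0.19).

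ATF3, a stress-induced partner of JUN proteins, had its transcript at 10.48 and 10.27 in the wild-type libraries against 10.94 and 11.15 in those with E79Q. Both E79Q libraries were higher, and the difference was 0.67 ± 0.07 (limma adjusted p = 2.92e-06), a 1.72-fold ratio of normalised counts. Among 8 other AP-1 subunits listed, 4 were high enough to test, 1 was called higher and 1 lower, and their median difference was 0.05. The shares over all tested genes were 21.5% called higher and 18.9% lower. Atf7, a relative of ATF2 that is regulated at the protein level by MAP kinases, rose by 0.19 ± 0.05. Jdp2, which represses AP-1 sites as a dimer with JUN proteins, fell by 0.17 ± 0.05. Atf2 was not called, at -0.02 ± 0.05. Batf, Batf2 and Batf3 were too low to test.

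Egr1 encodes a zinc finger factor induced through SRF and its ERK-activated partners. It lay at 11.99 and 11.95 in the wild-type libraries against 12.57 and 12.61 in those with E79Q. The libraries of each genotype were closest to each other in this gene among the 10, 0.04 apart. Because of the centring, this restates that the 2 pair differences of Egr1 were the closest to equal. The difference was 0.62 ± 0.05 (limma adjusted p = 4.20e-08), a 1.57-fold ratio of normalised counts. Its paralogues Egr2, Egr3 and Egr4 were too low to test.

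The 2 genes whose products feed back on signalling or survival rose as well. Dusp1, the nuclear phosphatase that inactivates p38, JNK and ERK, lay at 9.58 and 9.38 in the wild-type libraries against 10.09 and 10.28 in those with E79Q. The difference was 0.70 ± 0.08 (limma adjusted p = 2.42e-06), a 1.91-fold ratio of normalised counts. Ier3, a stress- and growth factor-induced regulator of cell survival, lay at 10.33 and 10.16 in the wild-type libraries against 11.07 and 11.24 in those with E79Q. The difference was 0.91 ± 0.07 (limma adjusted p = 3.59e-08), a 2.08-fold ratio of normalised counts. Neither gene's groups overlapped.

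Myc, the growth regulator that binds E-boxes with MAX, lay at 10.73 and 10.54 in the wild-type libraries against 11.53 and 11.72 in those with E79Q. Normalised counts were 1457 and 1251 in wild type and 2710 and 3119 in E79Q. The difference was 0.99 ± 0.07 (limma adjusted p = 1.88e-08), a 2.15-fold ratio, and the nearest libraries of the 2 genotypes stood 0.80 apart.

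The size of the difference was not equal in the 2 replicate pairs. In each of the 9 genes that rose, the difference was larger in pair 2, from 0.57 to 1.70, than in pair 1, from 0.19 to 1.08. Fosl1 differed by 1.08 in pair 1 and by 1.70 in pair 2, Fos by 0.90 and 1.40, and Junb by 0.19 and 0.57. Egr1 was closest to equal, at 0.58 and 0.66. Jund fell by more in pair 1, with -0.34 and then -0.19. Over all tested genes the absolute difference was larger in pair 2 in 59.1%, and over called genes in 65.7%. The sources used here do not say what distinguishes the pairs.

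**Figure D2:**
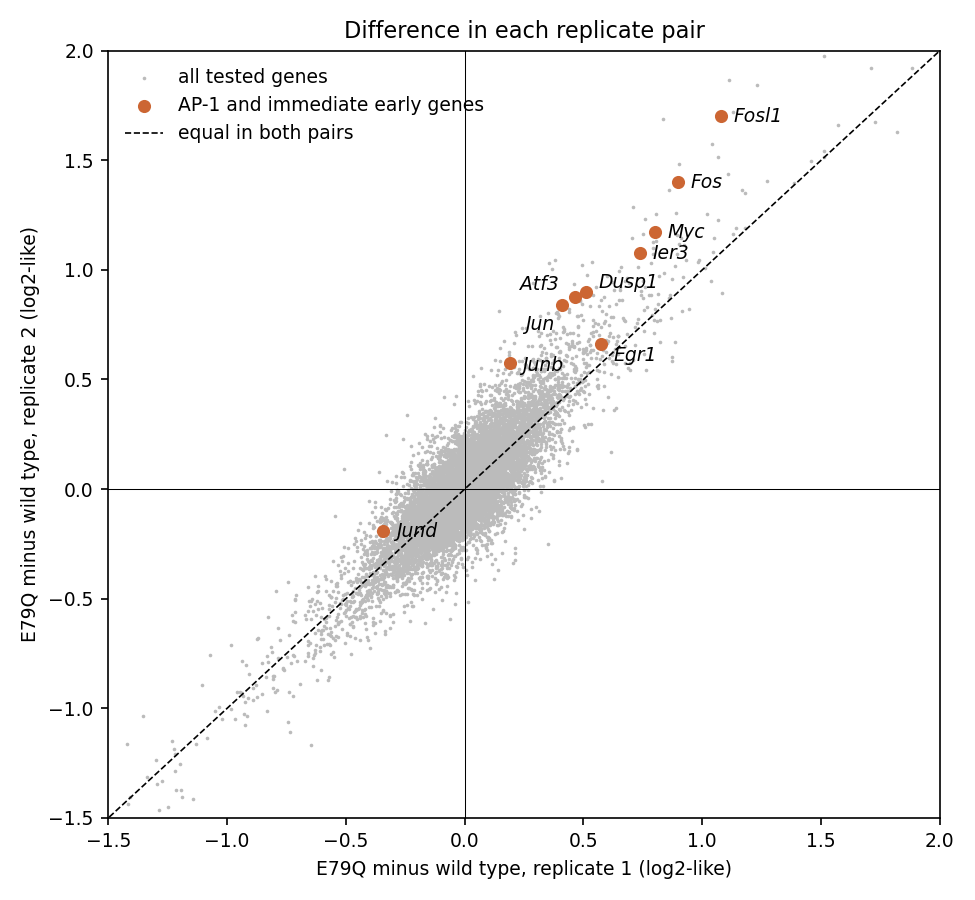
E79Q minus wild type in replicate pair 1 (horizontal) and pair 2 (vertical), in log2-like units, for all tested genes (grey; 9 lie outside the axes) and the 10 genes (orange, named). The dashed line marks equal differences; the 9 genes that rose lie above it, from Egr1 next to the line to Fosl1 at 1.08 and 1.70.

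Many other immediate early genes were higher too. Of 39 listed genes, 33 were tested, 20 were called higher and 5 lower, with a median difference of 0.33. Among all tested genes 21.5% were called higher and 18.9% lower. Plk3, a stress-responsive kinase, rose by 1.43 ± 0.09 (limma adjusted p = 1.31e-08), from 9.12 and 8.83 to 10.25 and 10.55. Phlda1 rose by 1.29 ± 0.08 (limma adjusted p = 3.40e-09). Both had groups that did not overlap. Against this direction, Sgk1, a kinase induced by glucocorticoids and serum, fell by 0.999 ± 0.066 (limma adjusted p = 1.25e-08), and Gadd45b, a stress-induced activator of p38 and JNK signalling, fell by 0.83 ± 0.06 (limma adjusted p = 2.03e-08). Sgk1 lay at 9.96 and 9.85 in the wild-type libraries against 8.85 and 8.96 in those with E79Q.

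Calls among the kinases and factors upstream depended on the scaling. All 21 were tested, 5 were called higher and 7 lower, beside 21.5% and 18.9% of all tested genes. Their median difference was 0.0042 and their median absolute difference 0.15, beside 0.12 over all tested genes. After median centring, after quantile normalization and with no filter on low values, 1 was called higher and 7 lower. Mapk8, which encodes JNK1, a kinase that phosphorylates JUN, rose by 0.22 ± 0.07. Srf, the factor that binds CArG boxes of immediate early genes, rose by 0.16 ± 0.06 (limma adjusted p = 0.0328). This call was lost under 7 of 12 alternatives, among them no replicate block (limma adjusted p = 0.111) and median centring (0.0507). Without replicate 2 of wild type or of E79Q the difference in Srf was 0.11. Elk3, an SRF partner that represses when not phosphorylated, fell by 0.33 ± 0.05, and Mapk14, which encodes p38 alpha, fell by 0.31 ± 0.05. Transcript levels do not measure the activity of these kinases.

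The MAPK phosphatases related to Dusp1 had 8 of 9 genes tested, 5 called higher and 1 lower, with a median difference of 0.53. Of all tested genes 21.5% were called higher and 18.9% lower. Dusp6, a cytoplasmic ERK phosphatase, rose by 0.997 ± 0.084 (limma adjusted p = 1.75e-07), and Dusp5, a nuclear one, by 0.90 ± 0.07 (limma adjusted p = 4.84e-08). Dusp4, near the floor of the scale, rose by 0.64 ± 0.07, a 2.93-fold ratio of normalised counts. Dusp7 rose by 0.62 ± 0.05 and Dusp8 by 0.44 ± 0.06. Dusp10, which acts on p38 and JNK, fell by 0.25 ± 0.07 (limma adjusted p = 0.0107). Dusp16 was not called, at 0.12 ± 0.06, except without replicate 1 of wild type (limma adjusted p = 0.0149) or of E79Q (0.0145), where its difference was 0.16. Dusp9 was not called, at 0.0036 ± 0.07.

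Known AP-1 targets were split. Of 23 listed genes 15 were tested, 9 were called higher and 4 lower, beside 21.5% and 18.9% of all tested genes. Their median difference was 0.24. Areg, an EGFR ligand, lay at 8.45 and 8.09 in the wild-type libraries against 9.80 and 10.16 in those with E79Q, which differ by 1.70 ± 0.11 (limma adjusted p = 1.03e-08). Hbegf, another EGFR ligand, rose by 1.54 ± 0.10 (limma adjusted p = 7.19e-09). The matrix proteases Mmp14 and Plau fell by 0.55 ± 0.05 and 0.46 ± 0.05, and Mmp3, Mmp9, Mmp10 and Mmp13 were too low to test. Of these Mmp genes only Mmp13 had groups that did not overlap, at 7.40 and 7.04 in wild type and 7.77 and 8.13 in E79Q. Ivl and Sprr1b, also too low to test, did not overlap either. Ivl was higher in E79Q, at 7.33 and 7.25 in wild type and 7.41 and 7.49 in E79Q. Sprr1b was lower, at 7.41 and 7.47 in wild type and 7.13 and 7.08 in E79Q.

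The MYC network did not move as 1 group. Of 12 partners and antagonists 11 were tested, 2 were called higher and 4 lower, beside 21.5% and 18.9% of all tested genes. Their median difference was -0.07. Without the replicate block 11 were called, 5 higher and 6 lower, where 55.3% of all tested genes were called. Max, the obligate partner of MYC, rose by 0.16 ± 0.06 (limma adjusted p = 0.0381), and this call was lost under 4 of 12 alternatives, median centring among them (0.0638). Mga, a MAX-binding repressor, rose by 0.21 ± 0.05. Mycl, a MYC paralogue, fell by 0.58 ± 0.06 (limma adjusted p = 2.31e-06), and Mxd3, which competes for MAX, by 0.43 ± 0.07. All 24 listed MYC targets were tested, 14 were called higher and 2 lower, beside the same 21.5% and 18.9% of all tested genes. Their median difference was 0.19. Gnl3, which encodes nucleostemin, rose by 0.85 ± 0.06 and Wdr43, a ribosome biogenesis factor, by 0.55 ± 0.06. Ldha, lactate dehydrogenase A, fell by 0.40 ± 0.04 and Cdk4, a kinase of the G1 phase, by 0.25 ± 0.05.

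**Figure D3:**
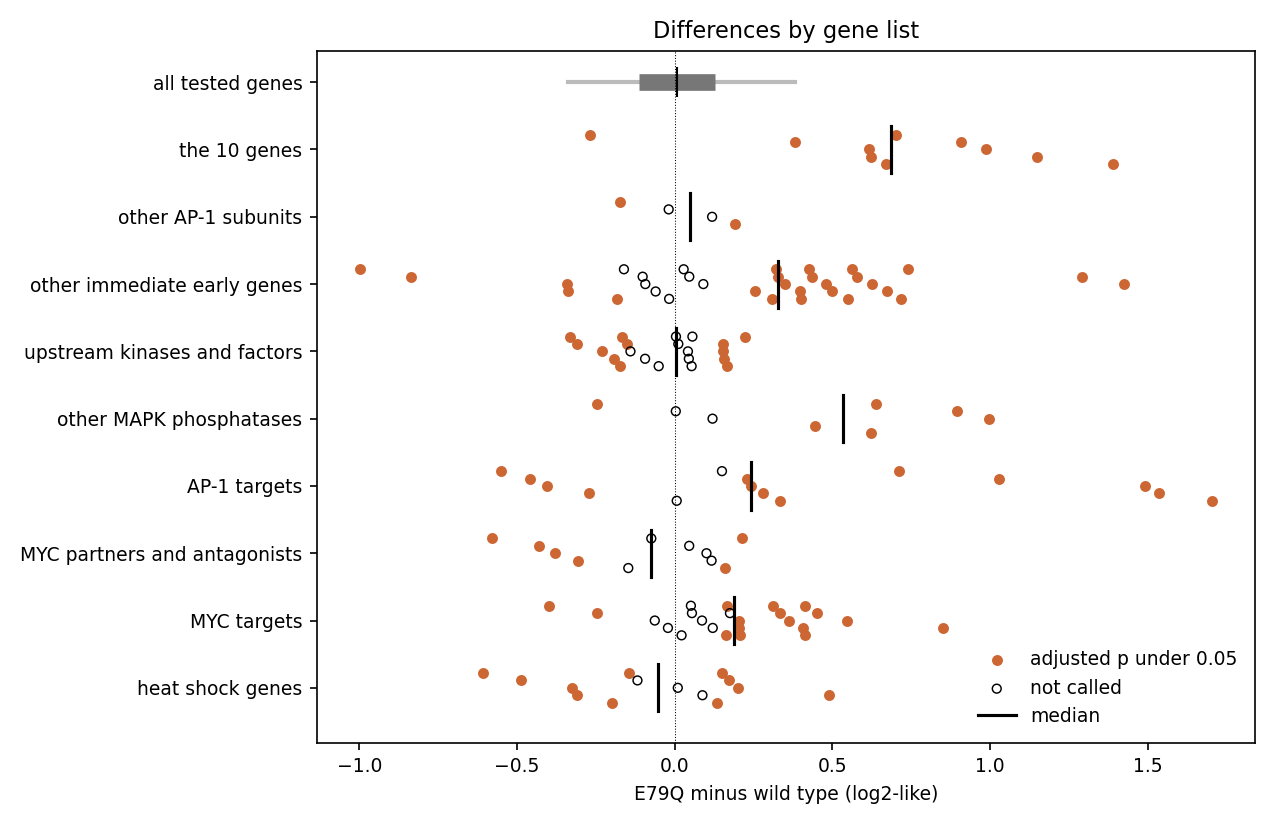
E79Q minus wild type in log2-like units for every tested gene of each list (points, filled where called, open where not; thick black line, median). The bar at the top gives the 25th to 75th and the thin line the 5th to 95th percentile of all tested genes; the medians of the 10 genes and of the other MAPK phosphatases are 0.69 and 0.53, and that of the upstream factors is 0.0042.

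Because immediate early genes also respond to handling, heat shock genes, which do so too, were read from the same libraries. All 14 listed genes were tested, with 5 called higher and 6 lower, beside 21.5% and 18.9% of all tested genes. Their median difference was -0.05. With no filter on low values 2 were called higher and 4 lower. Dnajb4 and Hspd1, which encode co-chaperone and mitochondrial chaperone proteins, rose by 0.49 ± 0.07 and 0.20 ± 0.05. Hspa8, the constitutive HSP70, fell by 0.61 ± 0.05, and Hspa1b, an inducible HSP70, fell by 0.49 ± 0.06. Hspa1b has a near-identical copy, Hspa1a, so its value is uncertain. The part of handling in the rise of the 10 genes was not tested.

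All 10 keratinocyte markers were high enough to test, and their summed normalised counts ran from 133703 to 139911 in wild type and from 135844 to 142201 in E79Q. Of the 10, 4 were called higher (Dsg3 by 0.74, Krt13 by 0.49, Col17a1 by 0.30 and Itgb4 by 0.28), and 2 were called lower (Krt15 fell by 0.58 and Krt14 by 0.13). Among all tested genes the shares were 21.5% higher and 18.9% lower. The call of Krt14 was lost under 6 of 12 alternatives, among them the fit without the replicate block (limma adjusted p = 0.0647). Markers of fibroblasts summed to 417 and 422 in wild type and to 120 and 129 in E79Q. Of the 8 only Col1a1 was high enough to test, with Lum and Thy1 under 10 counts in every library. Col1a1 carried most of the wild-type sum, with 305 and 333 counts in wild type and 44.9 and 36.7 in E79Q. Among the untested markers Col1a2 and Col3a1 were lower in E79Q, Dcn and Thy1 were higher, and Pdgfra and Pdgfrb overlapped. Muscle markers summed to 982 and 1028 in wild type and to 316 and 293 in E79Q, with Des, Myh11 and Actg2 of the 6 under 10 counts. Acta2 carried most of that sum, with 859 and 880 counts in wild type and 259 and 250 in E79Q. Tagln and Cnn1 were also lower in E79Q, and Des and Myh11 were higher. Of 6 immune markers Ptprc, Lyz2, Cd3e, Csf1r and Itgam stayed under 10 counts, and the sixth, Cd68, carried nearly the whole sum of 168 to 190 in wild type and 377 to 415 in E79Q. The 4 keratins of simple epithelium summed to 29997 and 29865 in wild type and to 17575 and 17706 in E79Q. Markers of endothelial cells, Schwann cells and adipocytes summed to at most 23.1 counts in any library. The part of these other markers in the differences of the 10 genes was not tested, and in bulk RNA fewer cells of a type and less RNA per cell cannot be told apart. Nfe2l2 itself lay at 11.38 and 11.27 in the wild-type libraries against 11.17 and 11.27 in those with E79Q and was not called (limma adjusted p = 0.154); a substitution does not show in its level. It was called lower after quantile normalization (limma adjusted p = 0.0486) and without replicate 2 of wild type (0.0160) or of E79Q (0.0139).

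**Figure D4:**
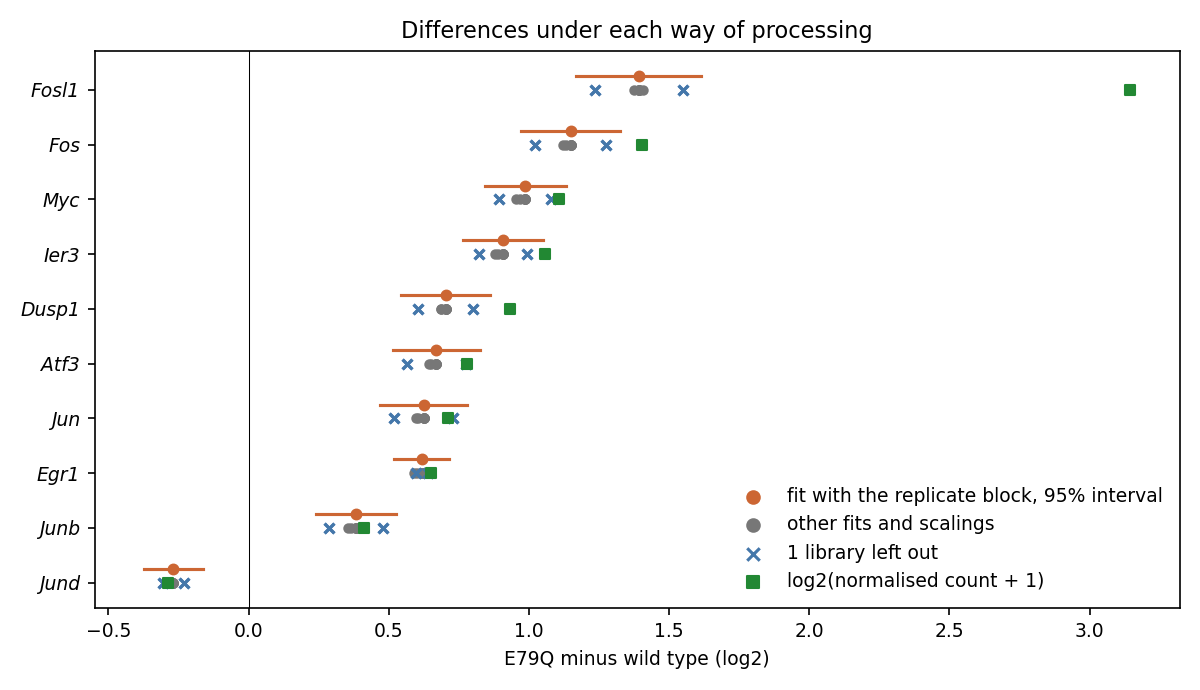
E79Q minus wild type for the 10 genes (log2 units) with the replicate block and its 95% interval (orange), under other fits and scalings (grey), with 1 library left out (blue crosses, in 2 positions because either library of a pair gives the same difference) and on the log2(normalised count + 1) scale (green squares). Every gene keeps its sign, which leaving out a library could not change because both pair differences of each gene agree in sign. Fosl1 moves most, from 1.39 to 3.15 on the count scale.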

How the data were processed

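The deposited values are variance-stabilised log2-like values of normalised counts, 1 per gene and library, with the genotype and replicate number in the column names, per the file headers. Build mm9 and the tools DESeq2, DESeq 1.22.2, Salmon 0.11.3 and STAR 2.5.2b are listed, without roles, in the submitters' processing notes. The sources used here give neither annotation nor strand setting, so reads of antisense partners cannot be told apart. In all 24444 genes the sum of the wild-type and E79Q values is the same in replicate 1 and replicate 2, to within 1.31e-13, so the values had been centred on the replicate number, which therefore pairs the libraries. What the number marks was not stated.

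Genes with a value at least 1 above the lowest of the table in at least 2 libraries were tested (10857) with limma 3.58.1 in R 4.3.3 (lmFit with the replicate block, eBayes with a trend, two-sided, Benjamini-Hochberg over all tested genes). The prior degrees of freedom were 14.6, beside 1 residual degree, so most of the precision is borrowed across genes. Normalised counts were recovered from the floor, 6.98, at which 8120 genes lie in all libraries; they sum to between 13479863 and 13928658 per library. Read depth itself is not recorded in these values. Without the block, 6004 genes (55.3%) were called in place of 4388. That fit counts 2 residual degrees of freedom per gene, but the centring leaves 1, so its p-values do not have the right degrees of freedom.

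The members, the lists and the tests were chosen with earlier results of these data known. All 10 members are named. From each other list the rule named up to 2 called genes in each direction, those that moved most, every called AP-1 subunit and MAPK phosphatase, and Nfe2l2 as the targeted gene. The uncalled AP-1 subunits and phosphatases, the genes too low to test and the paralogues named beside a member were added after their values were seen. Alternatives changed the block, the scaling, the filter, the empirical Bayes step and the scale, and left out each library in turn. Leave-one-out fits had no block, since 1 pair leaves no residual degree of freedom. The lone library is assumed to vary like the other group. Leaving out either library of a pair gives the same difference in every gene because of the centring, so these are 2 checks and not 4. Promoters are RefSeq sequences.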

Additional observations from a re-analysis of the deposited data

How the results depend on the processing

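All 10 genes kept their direction under the 12 alternatives, and 119 of the 120 resulting calls were the same; the exception was Junb without the replicate block. Changes of the block, the filter or the empirical Bayes step could not alter a direction, since they leave the difference as it was. Leaving out a library could not either, because both pair differences of each of the 10 genes had the same sign. Without the block 9 of the 10 genes were called, 8 higher, among 6004 genes in all, and 11 MYC partners and antagonists in place of 6. The fit without the block counts 2 residual degrees of freedom where the centring leaves 1. With no filter on low values 6 heat shock genes were called in place of 11. With 1 library left out all 10 genes were called, and 5008 to 5463 genes in all; either library of a pair gives the same difference, so these 4 fits hold 2 different outcomes and are not independent of the deposited centring. On the log2(normalised count + 1) scale the differences were larger for low genes, with 3.15 in Fosl1, 2.84 in Areg, 1.54 in Dusp4, 1.51 in Dusp5, -1.45 in Mxd3 and -0.53 in Dusp10. Median centring moved the median of all genes by -0.02. Of 43 other genes (those named by rule, the uncalled AP-1 subunits and phosphatases tested, and the called keratinocyte markers), 36 kept every call and sign. Of the 12 alternatives, Srf lost its call under 7, Krt14 under 6 and Max under 4. Nfe2l2 gained a call under 3, and Fosl2 and Dusp16 each under 2. Dusp9, never called, turned to -0.014 after median centring, -0.0027 after quantile normalization and -0.030 without replicate 2 of either genotype, beside 0.037 without replicate 1. The cause of these changes was not tested, except that the count scale is not compressed near the floor. The stricter filter removed Dusp4, Dusp10 and Mxd3 from the test. Read depth is unknown, so no limit of detection is given.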
